A study of Homo sapiens with 2 samples.

Results

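The genes examined were 44 nuclear genes for enzymes of the tricarboxylic acid (TCA) cycle, including the pyruvate dehydrogenase complex that feeds it, and of fatty acid oxidation. They were taken by name from a table of 56303 genes, with a minimum of 20 reads in the 2 libraries together, and all 20 TCA genes and all 24 fatty acid oxidation genes passed. The least covered were ACSL5 with 78 reads in all and ACADS with 162, and no listed gene fell below the minimum. The study sequenced RNA precipitated with ZMAT2, a zinc-finger protein of the spliceosome, in HUH7 cells, a human liver cancer line, and asked whether ZMAT2 acts on tumour progression through splicing. One library came from the precipitate of an anti-ZMAT2 antibody (IP, from 80% of the lysate) and 1 from lysate that was set aside (Input, 10%). The labels name no drug or genetic change for either library, and a rabbit IgG control was not analysed here, so the specificity of the precipitation could not be judged and no ratio below is a measure of binding to ZMAT2.

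The TCA cycle runs in the mitochondrial matrix and oxidises acetyl-CoA to carbon dioxide while reducing NAD+ and FAD. Fatty acid oxidation activates fatty acids to acyl-CoA, carries them into the matrix as carnitine esters and shortens them stepwise to acetyl-CoA, while peroxisomes shorten very long and branched chains. In liver cells both feed the respiratory chain, and fatty acid oxidation also supplies ketone bodies.

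Total depth was 25047635 reads for the IP and 23485789 for Input. The log2 ratio is the IP level over the Input level in CPM (read counts scaled to the same library total), after TMM scaling, which sets the bulk of genes near a ratio of 1, so it is a relative and not an absolute recovery. Each range given with a value is a 95% interval that covers counting error only. Each group held 1 library, so there is no replicate check and no test between conditions. Even counts were in excess among low ones, as when mates count singly, and intervals on pairs of reads had a median width over members of 0.31 instead of 0.22. A gene was called higher or lower when its ratio passed a stated fold and the interval excluded 0. Both libraries are given as shares of a lysate of bulk HUH7 cells, so a ratio between them is not a measure of cell number or of RNA per cell. All 10 hepatocyte markers listed were measured, with summed levels of 15880 and 22168 CPM in IP and Input. Of the other markers 2 of 5 immune, 3 of 5 fibroblast and 1 of 4 endothelial genes had at least 20 reads. Summed over all listed genes of each type, IP and Input levels were 256 and 369.9 CPM, 7.41 and 5.79 CPM, and 10.8 and 14.0 CPM. CD3E, COL1A1, DCN, CDH5 and KDR were at 0 and PTPRC had 1 read, while LYZ, which shares 34.0% of its exon bases with a neighbour, made up most of the immune sum.

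The RNAs of both pathways stood at similar levels in the IP and in Input, and most members lay within 1.5-fold. Counts were given for each gene over its exons, so mature mRNA and unspliced RNA cannot be told apart, and mRNA below stands for both. TCA genes were shifted slightly upward from the bulk of genes, and fatty acid oxidation genes spread in both directions. Without 4 long-chain acyl-CoA synthetases, left out after the data were seen, the fatty acid oxidation median was 0.31 on the log2 scale, against 0.24 for TCA. The synthetases had a median of -0.31, so leaving them out raised the fatty acid oxidation median. Whether the upward shift was particular to TCA genes was not tested. The SD across fatty acid oxidation genes, 0.52, was no larger than the 0.57 of nuclear protein-coding genes with at least 1000 reads. ACADVL, the very long-chain acyl-CoA dehydrogenase, was the highest member at 2.03-fold, and ACSL3, an acyl-CoA synthetase, the lowest at 0.596-fold. The members together took 0.496% of the IP reads and 0.488% of the Input reads.

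At 2-fold 1 of the 44 members was called higher (2.27%) and 0 lower, against 7.41% and 6.97% of all 17915 genes with at least 20 reads. At 1.5-fold 9 members were called higher (20.5%) and 1 lower (2.27%), against 17.8% and 16% of all genes. Of the 39 members with at least 1000 reads, 1 was higher at 2-fold, 8 were higher at 1.5-fold and 1 was lower at 1.5-fold. Among 6587 nuclear protein-coding genes of that depth the shares were 3.95% higher and 2.61% lower at 2-fold, and 15.1% higher and 13.6% lower at 1.5-fold. The share of members called higher at 1.5-fold was near the background, and the share called lower was below it; neither was tested.

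Within the TCA list 1 of 20 genes (5%) was called higher at 1.5-fold and none lower, against 17.8% and 16% of all genes. There, 16 genes exceeded the median of all genes, which was 0.00590 on the log2 scale. The TCA median was 0.24, with an SD across genes of 0.32. Within the fatty acid oxidation list 8 of 24 genes (33.3%) were called higher at 1.5-fold and 1 lower (4.17%), and 15 exceeded the median of all genes. The share called higher was thus below that of all genes for TCA and above it for fatty acid oxidation, and neither was tested. The fatty acid oxidation genes had a median of 0.09 and an SD of 0.52, against an SD of 0.57 for the deeply covered protein-coding genes.

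The TCA median was thus 0.16 above that of fatty acid oxidation, and this order depended on which genes were compared. Without the 4 long-chain acyl-CoA synthetases, which also activate fatty acids for lipid synthesis, the fatty acid oxidation median was 0.31 and the difference -0.064. This omission was chosen after seeing the data. Over the enzymes of the mitochondrial matrix and inner membrane alone, 17 TCA and 16 fatty acid oxidation genes, the difference was -0.20. Summed over genes, the TCA list had 55498 IP reads and 48540 Input reads (log2 ratio 0.21, 0.19 to 0.22), and the fatty acid oxidation list had 68767 IP reads and 66087 Input reads (log2 ratio 0.07, 0.05 to 0.09). This order turned in the same way. Without the synthetases the fatty acid oxidation list had 51962 IP reads and 40853 Input reads (log2 ratio 0.36, 0.34 to 0.38). Over the mitochondrial enzymes alone the TCA genes had 40104 IP reads and 34400 Input reads (log2 ratio 0.23, 0.21 to 0.25) and the fatty acid oxidation genes 40707 IP reads and 30896 Input reads (log2 ratio 0.41, 0.39 to 0.43).

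**Figure D1:**
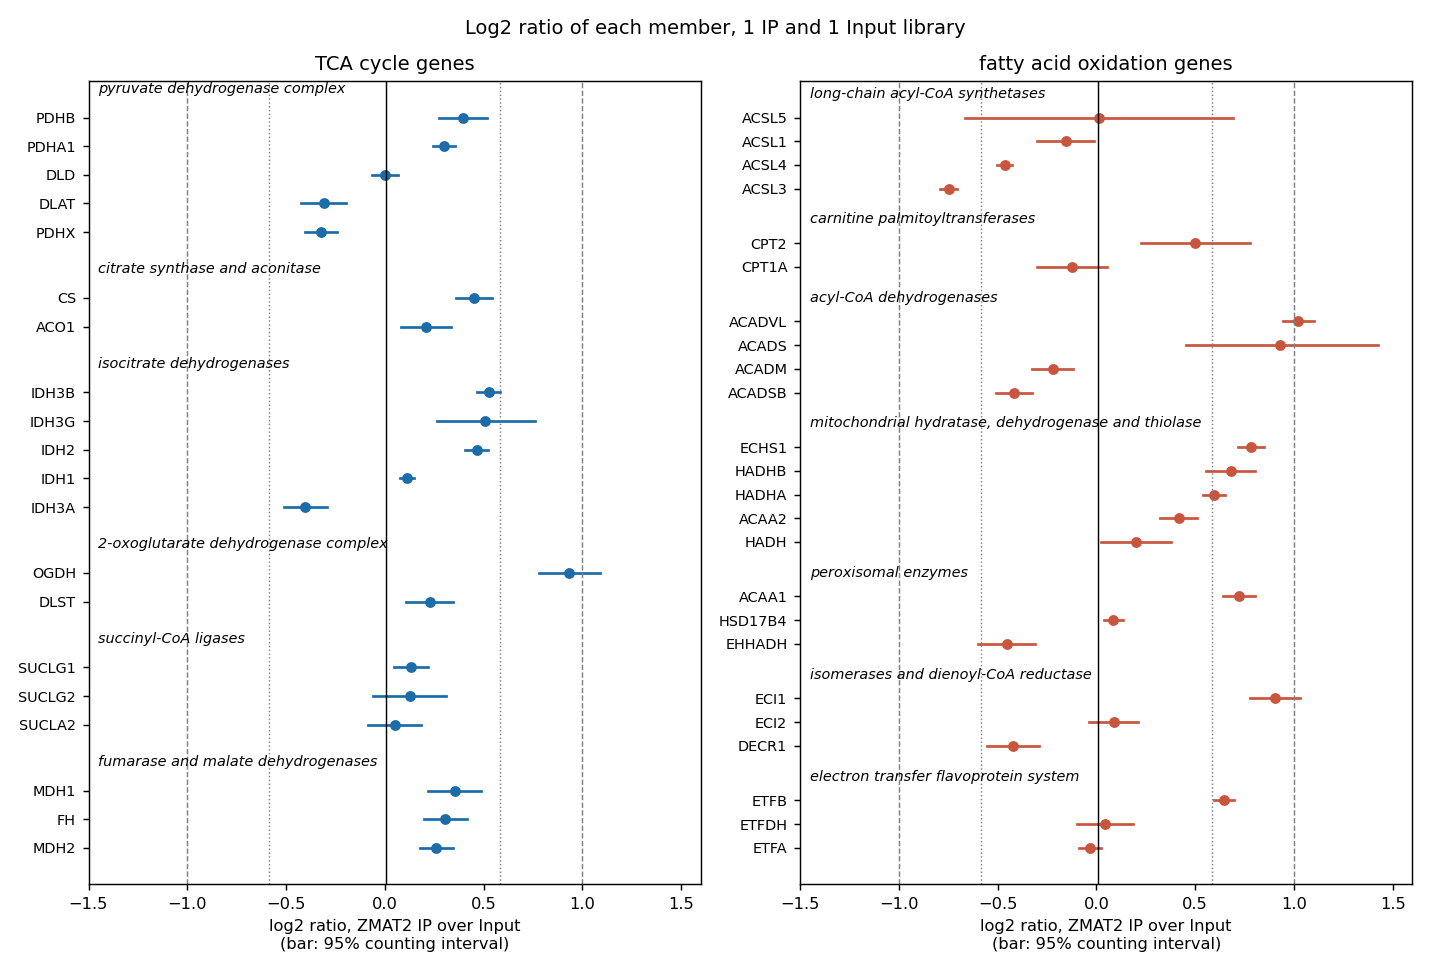
Log2 ratio of the ZMAT2 IP over Input for each TCA and fatty acid oxidation gene, grouped by enzymatic step. Points are ratios, bars 95% counting intervals, dotted lines 1.5-fold and dashed lines 2-fold. ACADVL alone has its point beyond 2-fold, with a bar from 0.94 to 1.10, and ACSL3 lies lowest at -0.75.

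The pyruvate dehydrogenase complex converts pyruvate to acetyl-CoA, and the mRNAs of its subunits had unequal ratios. PDHA1 and PDHB, for the alpha and beta chains of the E1 component, were above the bulk of genes. PDHA1 was covered by 6011 IP reads and 4928 Input reads (log2 ratio 0.30, 0.24 to 0.35) and PDHB by 1258 IP reads and 966 Input reads (log2 ratio 0.39, 0.27 to 0.52). PDHA1 shares 21.3% of its exon bases with MAP3K15 and PDHB 7.63% with another gene, and reads there cannot be assigned to either partner. DLAT, for the E2 acetyltransferase, and PDHX, for the protein that anchors E3, stood below the bulk. DLAT was covered by 1153 IP reads and 1441 Input reads (log2 ratio -0.31, -0.42 to -0.20). For PDHX, which shares 6.89% with APIP, the counts were 2274 against 2868 reads (-0.32, -0.40 to -0.24).

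DLD, the E3 dehydrogenase that several 2-oxoacid complexes share, was balanced at 3696 against 3725 reads (0.00, -0.06 to 0.07). Differences between members were given intervals by Woolf's method from the reads of both libraries. PDHA1 exceeded DLAT by 0.61 (0.48 to 0.73) and PDHX by 0.62 (0.53 to 0.72) on the log2 scale. The difference of PDHA1 minus PDHB was -0.09 (-0.23 to 0.04) and that of DLAT minus PDHX 0.01 (-0.12 to 0.15), and both intervals included 0.

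At the entry of the cycle citrate synthase (CS) and the cytosolic aconitase ACO1, which is also an iron regulatory protein, were above the bulk of genes, and neither passed 1.5-fold. CS was covered by 2300 IP reads and 1696 Input reads (log2 ratio 0.45, 0.36 to 0.54) and ACO1 by 1096 IP reads and 958 Input reads (log2 ratio 0.21, 0.08 to 0.33).

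Isocitrate dehydrogenase mRNAs held the lowest ratio of the cycle and, after OGDH, the next highest. IDH3A, IDH3B and IDH3G encode subunits of the NAD-dependent enzyme. IDH3B was covered by 6184 IP reads and 4335 Input reads (log2 ratio 0.53, 0.47 to 0.58) and IDH3G by 326 IP reads and 231 Input reads (log2 ratio 0.51, 0.26 to 0.76). IDH3A, the catalytic alpha subunit, was on the other side of 0, with 1214 IP reads and 1620 Input reads (log2 ratio -0.40, -0.51 to -0.30). The beta subunit lay 0.93 (0.81 to 1.05) above the alpha subunit on the log2 scale, and the gamma subunit 0.91 (0.65 to 1.18) above it. IDH3A shares 38.2% of its exon bases with ACSBG1 and IDH3G 10.2% with SSR4, while IDH3B shares none.

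The NADP-dependent forms supply reducing power. IDH2, the mitochondrial form, had 5701 against 4166 reads (0.47, 0.41 to 0.52), and IDH1, the form of cytosol and peroxisomes, 13262 against 12364 reads (0.11, 0.08 to 0.15). IDH2 exceeded IDH1 by 0.35 (0.28 to 0.42).

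OGDH was the highest TCA gene. It encodes the E1 component of the 2-oxoglutarate dehydrogenase complex and lies at 44606572 to 44709066 on chromosome 7 (GRCh38). It was covered by 999 IP reads and 528 Input reads (log2 ratio 0.93, 0.78 to 1.09), or 1.91-fold, and stood above 91.5% of nuclear protein-coding genes. DLST, the E2 component of the same complex, had 1230 against 1060 reads (0.23, 0.11 to 0.35). OGDH exceeded DLST by 0.70 (0.51 to 0.90), and neither shares exon bases with another gene.

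The remaining TCA enzymes lay close together. SUCLG1, the alpha subunit common to both succinyl-CoA ligases, had 2298 against 2114 reads (0.13, 0.05 to 0.22). The GTP-forming beta subunit SUCLG2 had 507 against 469 reads (0.12, -0.06 to 0.31) and the ADP-forming SUCLA2 923 against 900 reads (0.05, -0.08 to 0.18). Both of these intervals included 0, as did that of the difference, 0.08 (-0.15 to 0.30). FH, which hydrates fumarate, had 1519 against 1239 reads (0.31, 0.20 to 0.42). The malate dehydrogenases of mitochondria (MDH2) and cytosol (MDH1) had 2511 against 2114 reads (0.26, 0.18 to 0.35) and 1036 against 818 reads (0.35, 0.22 to 0.49). The difference of MDH2 minus MDH1 was -0.09 (-0.25 to 0.06), an interval that included 0.

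Fatty acid oxidation begins with activation by long-chain acyl-CoA synthetases, and ACSL3 and ACSL4 had the lowest ratios of either list. ACSL3, of the endoplasmic reticulum and lipid droplets, lies at 222860934 to 222944639 on chromosome 2 and was covered by 6853 IP reads and 11598 Input reads (log2 ratio -0.75, -0.79 to -0.70). Only 10.3% of nuclear protein-coding genes had a lower ratio. ACSL4, which prefers arachidonic acid, had 9185 against 12779 reads (-0.46, -0.50 to -0.42). ACSL1, a main isoform of liver, had 728 against 818 reads (-0.16, -0.30 to -0.01), and its interval on pairs of reads, -0.36 to 0.05, included 0. ACSL5, with 39 reads in each library, could not be placed, at 0.01 (-0.67 to 0.69). ACSL4 exceeded ACSL3 by 0.28 (0.22 to 0.34) and ACSL1 exceeded it by 0.59 (0.44 to 0.74). The 4 synthetases summed to 16805 IP reads and 25234 Input reads (log2 ratio -0.57, -0.60 to -0.55), mostly reads of ACSL3 and ACSL4.

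Entry into the mitochondrion depends on carnitine palmitoyltransferases. CPT1A, the outer membrane enzyme that limits the rate, had 509 against 559 reads (-0.12, -0.30 to 0.05), an interval that included 0. CPT2, the inner membrane enzyme, had 265 against 189 reads (0.50, 0.23 to 0.78) and shares 12.0% of its exon bases. CPT2 exceeded CPT1A by 0.62 (0.30 to 0.94), or by 0.17 to 1.08 on pairs of reads.

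The acyl-CoA dehydrogenases catalyse the first oxidation of each round, and their mRNAs fell on both sides of 0. ACADVL, for very long chains, lies at 7217125 to 7225273 on chromosome 17 and was covered by 4073 IP reads and 2024 Input reads (log2 ratio 1.02, 0.94 to 1.10). Its interval holds the 2-fold line, and with library totals in place of TMM 0 members passed 2-fold. ACADS, for short chains, had 106 against 56 reads (0.93, 0.45 to 1.43). ACADM, for medium chains, had 1405 against 1652 reads (-0.22, -0.32 to -0.12), and ACADSB, which acts on the branched acyl-CoA from isoleucine, 1748 against 2355 reads (-0.42, -0.51 to -0.33). ACADVL exceeded ACADM by 1.24 (1.11 to 1.37), the widest gap among the 20 pairs of related members compared.

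All 5 mRNAs for the later matrix steps lay above the bulk of genes, and ECHS1, HADHA and HADHB were called higher at 1.5-fold. ECHS1, the short-chain enoyl-CoA hydratase, was covered by 4784 IP reads and 2806 Input reads (log2 ratio 0.78, 0.71 to 0.85). HADHA and HADHB, the subunits of the trifunctional protein for long chains, had 6108 against 4080 reads (0.59, 0.54 to 0.65) and 1373 against 864 reads (0.68, 0.56 to 0.81). The difference of HADHA minus HADHB was -0.09 (-0.22 to 0.05), an interval that included 0. Their genes overlap at one end, at 26190635 to 26244726 on chromosome 2 and 26243170 to 26290468 on chromosome 2, but share no exon bases. HADH, the short-chain hydroxyacyl-CoA dehydrogenase, had 561 against 493 reads (0.20, 0.02 to 0.38), and its interval on pairs of reads, -0.05 to 0.45, included 0. The mitochondrial thiolase ACAA2 had 2172 against 1641 reads (0.42, 0.32 to 0.51) and shares 7.59% of its exon bases. Summed, the 5 genes had 14998 IP reads and 9884 Input reads (log2 ratio 0.61, 0.58 to 0.65).

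The peroxisomal enzymes had unequal ratios. ACAA1, the peroxisomal thiolase, was covered by 3251 IP reads and 1986 Input reads (log2 ratio 0.72, 0.64 to 0.80), with 19.7% of its exon bases shared with DLEC1. HSD17B4, a bifunctional enzyme for very long and branched chains, had 6829 against 6491 reads (0.09, 0.04 to 0.14). EHHADH, the other bifunctional enzyme, had 666 against 921 reads (-0.45, -0.60 to -0.31), with 5.72% shared with its antisense gene. ACAA1 exceeded EHHADH by 1.18 (1.01 to 1.34) and the mitochondrial thiolase by 0.31 (0.18 to 0.43).

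Unsaturated fatty acids need isomerases and a reductase. ECI1, the mitochondrial enoyl-CoA isomerase, was covered by 1425 IP reads and 768 Input reads (log2 ratio 0.90, 0.78 to 1.03), or 1.87-fold. ECI2, found in mitochondria and peroxisomes, had 1070 against 1016 reads (0.09, -0.04 to 0.21), with 29.8% of its exon bases shared. DECR1, the dienoyl-CoA reductase, was lower in the IP at 818 against 1107 reads (-0.42, -0.56 to -0.29). ECI1 exceeded ECI2 by 0.82 (0.64 to 0.99).

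Electrons of the acyl-CoA dehydrogenases pass through electron transfer flavoprotein to ubiquinone. ETFB, its beta subunit, was covered by 8726 IP reads and 5625 Input reads (log2 ratio 0.65, 0.60 to 0.69), with 6.36% of its exon bases shared. ETFA, its alpha subunit, had 5246 against 5411 reads (-0.03, -0.09 to 0.02), and ETFDH, the ubiquinone oxidoreductase, 827 against 809 reads (0.04, -0.10 to 0.19), with 13.8% shared. ETFB exceeded ETFA by 0.68 (0.61 to 0.75), although both encode chains of the same dimer, and exceeded ETFDH by 0.60 (0.45 to 0.75).

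Levels per kb of merged exon length ran over a 295-fold range. The highest IP levels were 123 CPM per kb for ECHS1, 116 for IDH1 and 99.8 for IDH3B. The Input levels of these genes were 71.2, 108 and 69.3 CPM per kb. ACSL4 ranked second in Input, at 81.8 CPM per kb, and stood at 59.3 in the IP. The lowest IP levels were 0.381 CPM per kb for ACSL5, 1.05 for CPT2 and 1.66 for ACADS. Over the 44 members the Spearman correlation between log2 ratio and mean level was 0.045, so the ratio had almost no rank relation to the level.

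**Figure D2:**
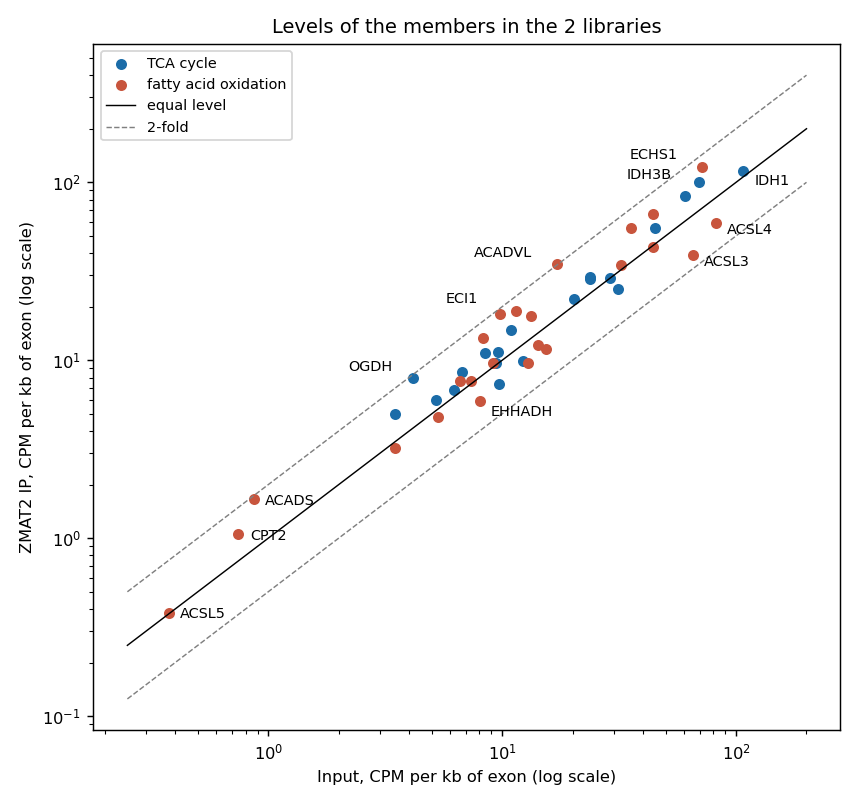
Level of each member in Input (horizontal) and in the ZMAT2 IP (vertical), in CPM per kb of exon on log axes, with equal level and 2-fold drawn as lines. Points follow the line of equal level from ACSL5 at the low end to IDH1, and ACSL3 and ACSL4 lie below it.

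Among the gene properties compared, the log2 ratio was most strongly related to gene span, the distance from first to last exon base. Over the 44 members the Spearman correlation was -0.64 with span, -0.46 with the number of exon blocks and -0.28 with exon length. With span it was -0.60 over the 20 TCA genes and -0.79 over the 24 fatty acid oxidation genes. Over the deeply covered protein-coding genes it was -0.18 with span, 0.10 with exon blocks and -0.05 with exon length. These values describe genes of the same 2 libraries, which are not independent replicates, and the difference from other genes was not tested. The correlation with span was -0.59 over the 31 members that share under 5% of their exon bases, -0.61 over the 39 with at least 1000 reads and -0.55 over the 33 of the mitochondrial matrix and inner membrane.

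The median span of the deeply covered protein-coding genes was 39495 bases. All 22 members at or below it had a ratio above the median of all genes, with a median of 0.43. The intervals of ETFDH and ECI2 included the median of all genes. Of the 22 longer members 9 were above the median of all genes, and the median of the 22 was -0.08. The 9 were OGDH, ACO1, SUCLA2, SUCLG2, HADHA, HADHB, HADH, HSD17B4 and ACSL5. The intervals of SUCLA2, SUCLG2 and ACSL5 included the median of all genes. Among the deeply covered protein-coding genes 55.4% of the shorter and 39.1% of the longer ones were above it. Members near this border were mixed. ETFDH, with a span of 37499 bases, had a log2 ratio of 0.04, and DLAT, IDH3A and DLD, with 39577, 40452 and 40761 bases, had ratios of -0.31, -0.40 and 0.00. HADH, next at 45462 bases, had 0.20, and HADHB and HADHA, with 47299 and 54092 bases, had 0.68 and 0.59. Shorter and longer fatty acid oxidation genes had medians of 0.68 (n = 10) and -0.14 (n = 14), and shorter and longer TCA genes 0.33 (n = 12) and 0.03 (n = 8).

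Of the 20 pairs of related members, 15 had a difference whose interval excluded 0, and in 12 of these the shorter gene had the higher ratio. The 3 in the other direction were OGDH over DLST, with spans of 102495 and 21855 bases, ACAA1 over ACAA2, with 34114 and 31794, and ACSL4 over ACSL3, with 109160 and 83706. The widest gap, ACADVL over ACADM, was between genes of 8149 and 63229 bases. No other gene pairs were compared, so neither count has a background share beside it. The intervals cover counting error only, and of the 6587 deeply covered protein-coding genes only 962 had a ratio whose interval included 0. Pairs share members and were chosen with earlier results known, so they are not independent, and the part of span in these differences was not tested.

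**Figure D3:**
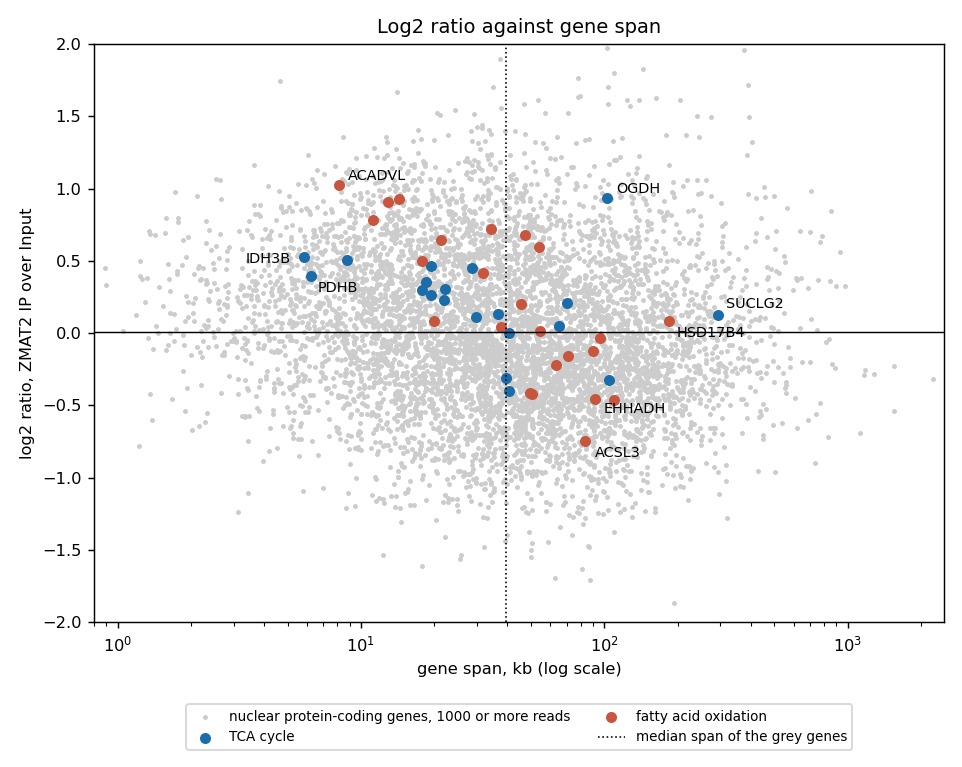
Log2 ratio of the ZMAT2 IP over Input against gene span in kb (log axis) for TCA and fatty acid oxidation genes, over nuclear protein-coding genes with at least 1000 reads in grey, 65 of which fall outside the axes. All 22 members at or below the median span of the grey genes lie above the median ratio of all genes, and OGDH is the highest of the longer ones. The counting intervals of ETFDH and ECI2, not drawn here, include that median ratio.

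By compartment, the 33 members of the mitochondrial matrix and inner membrane had a median log2 ratio of 0.30, with 25 above the median of all genes. The 6 of cytosol or peroxisomes had a median of 0.16, with 5 above. The 5 assigned to the endoplasmic reticulum or outer mitochondrial membrane, the synthetases and CPT1A, had a median of -0.16, with 1 above. That gene was ACSL5, whose interval included the median of all genes. Median spans of these groups were 31794, 52140 and 83706 bases, and the part of span was not tested.

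A wider list held 82 further genes of both pathways and their regulators, of which 80 had at least 20 reads. CPT1C had no read, and OGDHL had 14 in the IP and 0 in Input. At 2-fold 3 of the 80 were called higher and 4 lower, and at 1.5-fold 17 were higher and 12 lower. These are 3.75% and 5% at 2-fold, against 7.41% and 6.97% of all genes. At 1.5-fold they are 21.2% and 15%, against 17.8% and 16%, so no pooled share stood far above the background. Split by pathway, the 32 further TCA genes had a median log2 ratio of -0.06, with 5 higher and 8 lower at 1.5-fold (15.6% and 25%). The 48 further fatty acid oxidation genes had a median of 0.32, with 12 higher and 4 lower (25% and 8.33%). This order of medians was the reverse of that of all members and was not tested. The genes named next are described singly. PC, which makes oxaloacetate from pyruvate, was covered by 7449 IP reads and 3280 Input reads (log2 ratio 1.20, 1.14 to 1.26), with 10.5% of its exon bases shared. PCK2, the mitochondrial phosphoenolpyruvate carboxykinase, had 1599 against 716 reads (1.17, 1.04 to 1.30). PPARGC1B, a coactivator of mitochondrial genes, had 340 against 142 reads (1.27, 0.99 to 1.57). On the lower side PRKAA2, a catalytic subunit of AMP-activated kinase, had 197 against 531 reads (-1.42, -1.66 to -1.18). Few reads stood behind the others. The pyruvate dehydrogenase kinase PDK4 had 14 against 42 reads (-1.54, -2.56 to -0.67), the coactivator PPARGC1A 34 against 79 reads (-1.19, -1.83 to -0.61), and the glutaminase GLS2, which shares 77.1%, 36 against 85 reads (-1.22, -1.83 to -0.65).

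Succinate dehydrogenase, the cycle enzyme that is also part of the respiratory chain, had subunits on both sides of 0. SDHA, the flavoprotein, had 4416 against 2724 reads (0.71, 0.64 to 0.78), and SDHB, the iron-sulfur subunit, 1247 against 1384 reads (-0.14, -0.25 to -0.03), with an interval on pairs of -0.30 to 0.02. The membrane anchors SDHC and SDHD, which share 5.47% and 13.8% of their exon bases, had 929 against 1569 reads (-0.74, -0.86 to -0.63) and 276 against 477 reads (-0.78, on pairs -1.09 to -0.47). Its assembly factors SDHAF1 and SDHAF4 had 174 against 100 reads (0.81, 0.45 to 1.18) and 79 against 137 reads (-0.78, -1.20 to -0.37).

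Among regulators of pyruvate entry, the kinase PDK1 had 448 against 729 reads (-0.69, -0.86 to -0.52) and the lipoyltransferase LIPT1, with 19.8% of its exon bases shared, 102 against 190 reads (-0.88, -1.25 to -0.53). PDK2, with 38.6% shared, had 24 against 42 reads (-0.78, -1.58 to -0.04), and its interval on pairs included 0. GLUD1, which makes 2-oxoglutarate from glutamate and shares 13.2%, was higher at 7712 against 4416 reads (0.82, 0.76 to 0.87).

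Among further fatty acid oxidation genes FABP1, the liver fatty acid binding protein, had 13255 against 21079 reads (-0.66, -0.69 to -0.63). ACSM3, a medium-chain synthetase, was also lower at 192 against 313 reads (-0.69, -0.96 to -0.43), with 12.9% of its exon bases shared. ACACB, which makes the malonyl-CoA that inhibits CPT1A, was higher at 552 against 288 reads (0.95, 0.74 to 1.16). The log2 ratios of ACSF2, ACAD8, ACAD10 and RXRA were 0.75, 0.77, 0.70 and 0.66. GCDH, ACOT8 and CPT1B had 0.74, 0.66 and 0.63, with 8.51%, 35.3% and 66.4% of their exon bases shared. ACSL6 and SLC27A5 had 50 against 26 reads and 53 against 28 reads, with ratios of 0.94 and 0.92, and their intervals on pairs included 0.

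Beside related pathways, the medians of the TCA and fatty acid oxidation genes lay between those of glycolysis and the respiratory chain. Of 21 glycolysis genes 17 had at least 20 reads, with a median log2 ratio of 0.67 and 9 called higher at 1.5-fold (52.9%, against 17.8% of all genes). Those past 2-fold were PFKL, a phosphofructokinase, with 2667 against 1245 reads (1.11, 1.01 to 1.21), and 3 with few reads, ENO2, HK1 and PKLR, at 3.08 (1.97 to 4.69), 1.48 (0.53 to 2.60) and 1.20 (0.42 to 2.08). The 71 nuclear respiratory chain genes had a median of 0.00522, with 5 called higher and 4 lower at 1.5-fold (7.04% and 5.63%, against 17.8% and 16% of all genes). Past 2-fold were NDUFA3 and NDUFB4, subunits of the first complex, at 1.02 (0.47 to 1.61) and -1.15 (-1.54 to -0.77), the former with 6.34% of its exon bases shared. Median spans were 17368 bases for glycolysis and 12063 for the respiratory chain, against 29271 for TCA and 48316 for fatty acid oxidation genes. The differences between lists were not tested.

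**Figure D4:**
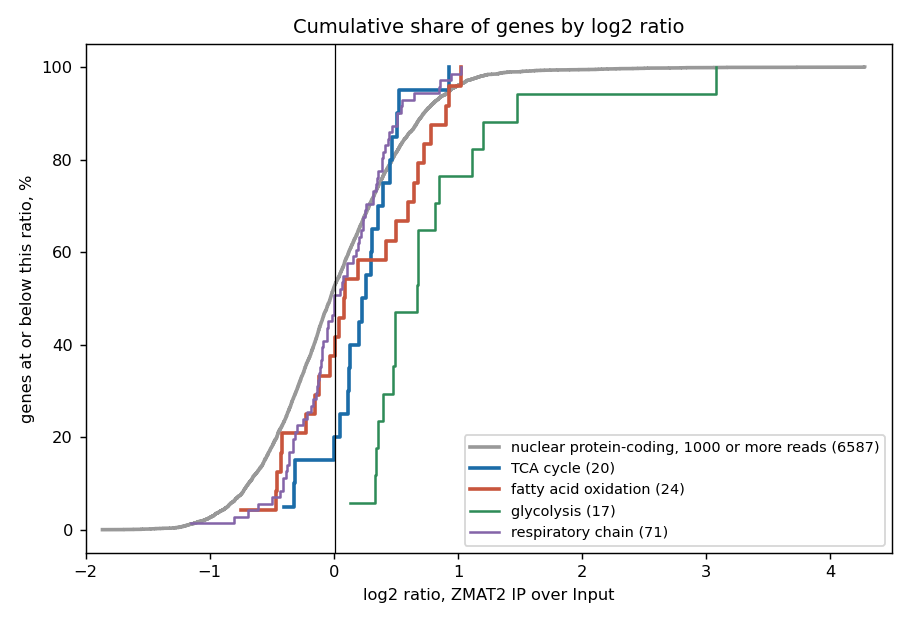
Cumulative share of genes (vertical) at or below a log2 ratio of the ZMAT2 IP over Input (horizontal), for TCA, fatty acid oxidation, glycolysis and respiratory chain genes and for nuclear protein-coding genes with at least 1000 reads. The TCA curve rises around its median of 0.24, the fatty acid oxidation curve is wider, and the glycolysis curve lies to the right of both.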

How the data were processed

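RNA immunoprecipitation followed by sequencing gave 1 IP and 1 Input library, grouped by title. The authors deposited raw whole-number counts for each gene, with exon coordinates and exon length, per the file headers. Tools named by the submitters' processing notes were fastp 0.23.4, STAR 2.5.3a and edgeR 3.12.1, with GRCh38 as the build. What counted the reads, with which strand setting and annotation, is not given in the sources used here. Among genes with 1 to 6 reads 77.9% of IP and 67.1% of Input counts were even, which is why intervals on pairs of reads (2 reads taken as 1) were added.

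Of the deposited names 33451 matched a current RefSeq symbol (GRCh38.p14), 1763 matched through an older one and 21089 were kept unchanged. Genes with at least 20 reads were scaled by TMM in edgeR 4.0.16 (R 4.3.3). Ratios used a prior count of 0.5 and exact (Clopper-Pearson) intervals, and the calling step was tested on simulated counts. Those counts held independent counting error only, so they do not bear on mates counted singly or on spread between libraries. With 1 library per group the quasi-likelihood test of edgeR was not possible and no p-value is given. Shared exon bases were counted on either strand, and overlapping or antisense genes cannot be told apart there. Members, lists and pairs were chosen with earlier results of these data known. The naming rule took every member, genes of other lists past 2-fold and further pathway genes past 1.5-fold; SDHB, CPT1C, OGDHL and the markers were named outside it after their values were seen, and some listed genes are not reported here. The span comparison was added after seeing the data. Alternatives were DESeq2 1.42.0 size factors, library totals, TMM over nuclear protein-coding genes, other read minimums, a prior count of 2, intervals on pairs, and leaving out genes that share exons.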

Additional observations from a re-analysis of the deposited data

How the results depend on the processing

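The alternatives other than library totals (DESeq2 size factors, TMM over nuclear protein-coding genes, a prior count of 2, intervals on pairs of reads, no minimum, minimums of 100 and of 1000 reads, and leaving out genes with 5% or more of their exon bases shared) left 1 member called higher and 0 lower at 2-fold, and 7 to 9 higher and 1 lower at 1.5-fold. The TCA median stayed within 0.23 to 0.28 and the fatty acid oxidation median within 0.07 to 0.10. Library totals shifted the all-gene median from 0.0059 to -0.0996, gave 0 members higher at 2-fold and 6 at 1.5-fold, and put the medians at 0.14 and -0.02, which were 0.24 and 0.08 above the all-gene median as before. No member called at 1.5-fold changed sign under any of these settings. Chosen after seeing the data, leaving out the 4 acyl-CoA synthetases put the fatty acid oxidation median at 0.31, and the difference of TCA minus fatty acid oxidation medians, 0.16 over all members, reversed to -0.064 without them and to -0.20 over mitochondrial members; both leave out the synthetases, 3 of which had ratios below the median of all genes. No paired analysis was possible because each group holds 1 library. Depth limits ACSL5 and ACADS, with 78 and 162 reads, and the spread between replicate libraries is unknown.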
